A study of Homo sapiens with 6 samples.

Results

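The Src family kinases are cytoplasmic tyrosine kinases anchored to the inner face of the plasma membrane, where they phosphorylate the signalling tails of antigen receptors. Here 9 genes were followed in Raji cells: the kinases LYN, BLK, FYN, LCK, FGR, SRC and YES1, the inhibitory kinase CSK and the membrane adaptor PAG1. They were chosen by name, with earlier results of these data known, and all 9 had a row among the 23459 genes of the count table. Raji is an established B cell line from a Burkitt's lymphoma, classed by the labels as derived from the germinal centre (GC). Cells carried a lentiviral short hairpin RNA (shRNA), either OBF1sh1 against OBF1 or the non-targeting hairpin SHC002. Both groups were exposed to lentivirus for 5 days and then kept in 3 μg/ml puromycin for 7 days, so infection and selection were shared. OBF1, the product of POU2AF1, is a B cell coactivator of the Oct transcription factors. Only 1 hairpin against it was sequenced, with 3 libraries per group.

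In B cells LYN is the main Src kinase at the antigen receptor, with BLK and FYN beside it. These kinases start receptor signalling by phosphorylating the paired tyrosines of CD79A and CD79B, and LYN also phosphorylates the inhibitory receptors that end it. CSK restrains the whole family by phosphorylating a tyrosine in the C-terminal tail of each kinase, which folds the enzyme into a closed form, and PAG1 recruits CSK to the membrane. The phosphatase CD45, encoded by PTPRC, removes that phosphate. Protein levels and phosphorylation were not measured, and the values below are of transcripts.

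Each library held between 29569281 and 32612429 gene counts. POU2AF1 fell from 514 ± 2.15 to 242 ± 1.66 CPM (counts per 1e6, with libraries scaled by TMM, the trimmed mean of M values; SD, n = 3). The 8 B cell markers checked summed to between 2522 and 2591 CPM in the controls and between 4215 and 4267 CPM with the OBF1 hairpin. Most of that difference was MS4A1, at 702 and 2078 CPM, and CD79B of the same markers was called lower, at 664 and 610 CPM. Whether replicate libraries were grown as separate cultures is not stated, so p-values cover only the spread among these libraries, which may be technical. In bulk RNA, fewer cells that express a gene and less RNA per cell cannot be told apart.

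Of the 9 genes, 8 passed the filter on low counts and were tested. LYN, BLK, LCK, FGR, SRC and CSK rose, FYN fell, and PAG1 did not pass the test (edgeR's quasi-likelihood F test, with Benjamini-Hochberg adjustment over all 12010 genes tested and a threshold of 0.05). These 7 calls stand against a background in which 75.4% of all tested genes were called, 37.5% higher and 37.9% lower, so that being called is no mark of these genes. A call with a change of at least 1.5-fold was made for 5 of the 8, LYN, FYN, FGR, SRC and CSK, and for 23.3% of all tested genes. The groups did not overlap in CPM for 7 of the 8 genes, and for 76.6% of all tested genes.

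Promoter sequences are shown for FGR, FYN and CSK, the only genes followed here with a reference window free of annotated exons. Each run is the 250 bases before an annotated transcription start, 5′ to 3′ on the gene's strand, from RefSeq on GRCh38.p14. The FGR window lies at chr1:27626598-27626847 (minus strand), the FYN window at chr6:111873453-111873702 (minus strand) and the CSK window at chr15:74788294-74788543 (plus strand). None of the 3 overlaps an exon of GENCODE release 29. Capitals would mark an octamer, ATGCAAAT on either strand, the motif that Oct factors bind, and no match was found.
FGR: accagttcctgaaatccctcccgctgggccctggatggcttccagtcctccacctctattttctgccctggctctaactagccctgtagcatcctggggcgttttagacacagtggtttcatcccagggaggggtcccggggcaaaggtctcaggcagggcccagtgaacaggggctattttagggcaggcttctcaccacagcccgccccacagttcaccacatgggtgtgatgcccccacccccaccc
FYN: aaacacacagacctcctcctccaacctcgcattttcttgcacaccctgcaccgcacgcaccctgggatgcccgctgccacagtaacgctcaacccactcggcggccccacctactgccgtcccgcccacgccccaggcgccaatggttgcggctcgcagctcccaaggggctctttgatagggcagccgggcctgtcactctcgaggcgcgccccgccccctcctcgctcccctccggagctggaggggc
CSK: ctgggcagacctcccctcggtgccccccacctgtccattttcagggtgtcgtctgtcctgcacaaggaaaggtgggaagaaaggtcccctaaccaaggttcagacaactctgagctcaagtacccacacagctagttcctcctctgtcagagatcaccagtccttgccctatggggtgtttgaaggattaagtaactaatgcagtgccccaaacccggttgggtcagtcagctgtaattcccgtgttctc

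The reference table held 10 such windows for 5 of the 9 genes (FGR, LCK, FYN, CSK and YES1). The exact octamer was in 0 of these 10 windows and in 1.63% of all 35116 windows of the same length. Allowing 1 mismatch, 1 of the 10 windows matched, the window of a FYN start not shown here, against 15.3% of all windows. The absence of these letters says nothing about binding of Oct factors elsewhere in the genes. The 3 windows shown also differ in composition: guanine and cytosine made up 60.8% of the FGR window, 68.8% of the FYN window and 54% of the CSK window. These values belong to single windows, not to genes. The FGR window not shown was at 67.2%, and the FYN windows ranged from 38% to 80.8%. The deposited counts are per gene, so the use of one start or another could not be read from them.

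LYN, which both starts and ends antigen receptor signalling, was at 45.5, 48.2 and 49.1 CPM in the control libraries and at 97.9, 97.6 and 97.7 CPM in the OBF1 shRNA libraries. Every OBF1 shRNA library lay far above every control library, and the 3 values were almost the same. The rise was 2.05-fold (log2 fold change 1.04, SE 0.04, edgeR adjusted p = 1.16e-14). BLK, a kinase largely restricted to the B lineage, was at 185, 190 and 184 CPM in the controls and at 256, 254 and 249 CPM with the OBF1 hairpin. It rose in all 3 libraries without overlap, by a smaller factor of 1.36 (log2 fold change 0.44, SE 0.03, edgeR adjusted p = 3.29e-11). A test of the change against 1.5-fold did not call BLK, while it did call LYN.

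FYN, a kinase shared by B cells, T cells and neurons, moved the other way. It was at 135, 147 and 147 CPM in control libraries and at 70.6, 73.3 and 72.3 CPM in OBF1 shRNA libraries. The first control library was the lowest of its group and still stood well above all OBF1 shRNA libraries. FYN was 1.99-fold lower (log2 fold change -0.99, SE 0.04, edgeR adjusted p = 2.39e-14), and it was the only kinase of the 6 tested that fell. It remained lower by 1.18 on the log2 scale when levels were expressed per length as TPM (transcripts per 1e6), a scale on which the median of all tested genes moved by -0.19 relative to scaled CPM.

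FGR, best known as a kinase of myeloid cells and also expressed in B cells carrying Epstein-Barr virus, was at 74.3, 74.1 and 72.8 CPM in control libraries. In OBF1 shRNA libraries it was at 234, 224 and 230.4 CPM. The groups were separated by a gap many times the spread within either. The rise was 3.11-fold (log2 fold change 1.64, SE 0.03, edgeR adjusted p = 7.18e-19). Beside it, the 9 myeloid markers checked summed to between 3.45 and 3.59 CPM in the controls and between 3.24 and 3.61 CPM with the OBF1 hairpin. The myeloid genes MPO and S100A9 had 0 counts in all 6 libraries. Among the tested markers of this list, ITGAM was called higher at 0.660 and 1.30 CPM, and LYZ lower at 0.605 and 0.157 CPM.

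LCK, the Src kinase that T cells use at their receptor, was low, at 13.6, 13.8 and 13.6 CPM in the controls and 15.9, 15.1 and 16.7 CPM with the OBF1 hairpin. The groups did not overlap on this scale, and the rise was 1.17-fold (log2 fold change 0.22, SE 0.06, edgeR adjusted p = 0.00332). That call rested on the scaling: with library sizes alone the log2 fold change was 0.11 (edgeR adjusted p = 0.102), and in TPM the groups overlapped, at 15.3 ± 0.0720 and 15.6 ± 0.633 TPM (SD, n = 3). The 10 T and NK cell markers checked summed to between 0.288 and 0.444 CPM in the controls and between 1.16 and 1.41 CPM with the OBF1 hairpin. The T cell genes CD3D, CD2 and CD7 had 0 counts in every library. NKG7, the only marker of that list that passed the filter, was called higher at 0.144 and 0.789 CPM. The part of these markers in the LCK value was not tested.

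SRC and YES1, kinases of many tissues, were scarce. SRC had 18, 16 and 14 counts in control libraries and 64, 83 and 84 counts in OBF1 shRNA libraries. It rose 5.10-fold, the largest factor in the family, from 0.499 ± 0.0688 to 2.55 ± 0.261 CPM (SD, n = 3, log2 fold change 2.35, SE 0.20, edgeR adjusted p = 5.22e-09). Even so it remained the least abundant of these 6 kinases. YES1 had 0, 0 and 0 counts in control and 2, 0 and 1 counts in OBF1 shRNA libraries. It did not pass the filter, and a count of 0 allows up to 3 counts, which is between 0.0893 and 0.0984 CPM in the libraries at 0, counting error only.

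CSK, the inhibitor of the family, was at 218, 225 and 215 CPM in control libraries and at 385, 370.0 and 379 CPM in OBF1 shRNA libraries. All OBF1 shRNA libraries were above all control libraries. The rise was 1.72-fold (log2 fold change 0.78, SE 0.03, edgeR adjusted p = 1.04e-14). PAG1, which brings CSK to the membrane, was at 120, 113 and 125 CPM in the controls and at 114, 116 and 109 CPM with the OBF1 hairpin. These ranges overlapped, and the log2 fold change of -0.08 (SE 0.04) did not pass the test (edgeR adjusted p = 0.0696). PAG1 was called lower without control shRNA replicate 2 (log2 fold change -0.11, edgeR adjusted p = 0.00629) and without OBF1 shRNA replicate 2 (-0.10, adjusted p = 0.0407). It was also called lower with upper-quartile factors (adjusted p = 0.0294) and with library sizes alone (log2 fold change -0.19, adjusted p = 0.000264). In TPM the PAG1 groups did not overlap, at 32.3 ± 1.97 and 26.8 ± 1.18 TPM (SD, n = 3).

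**Figure D1:**
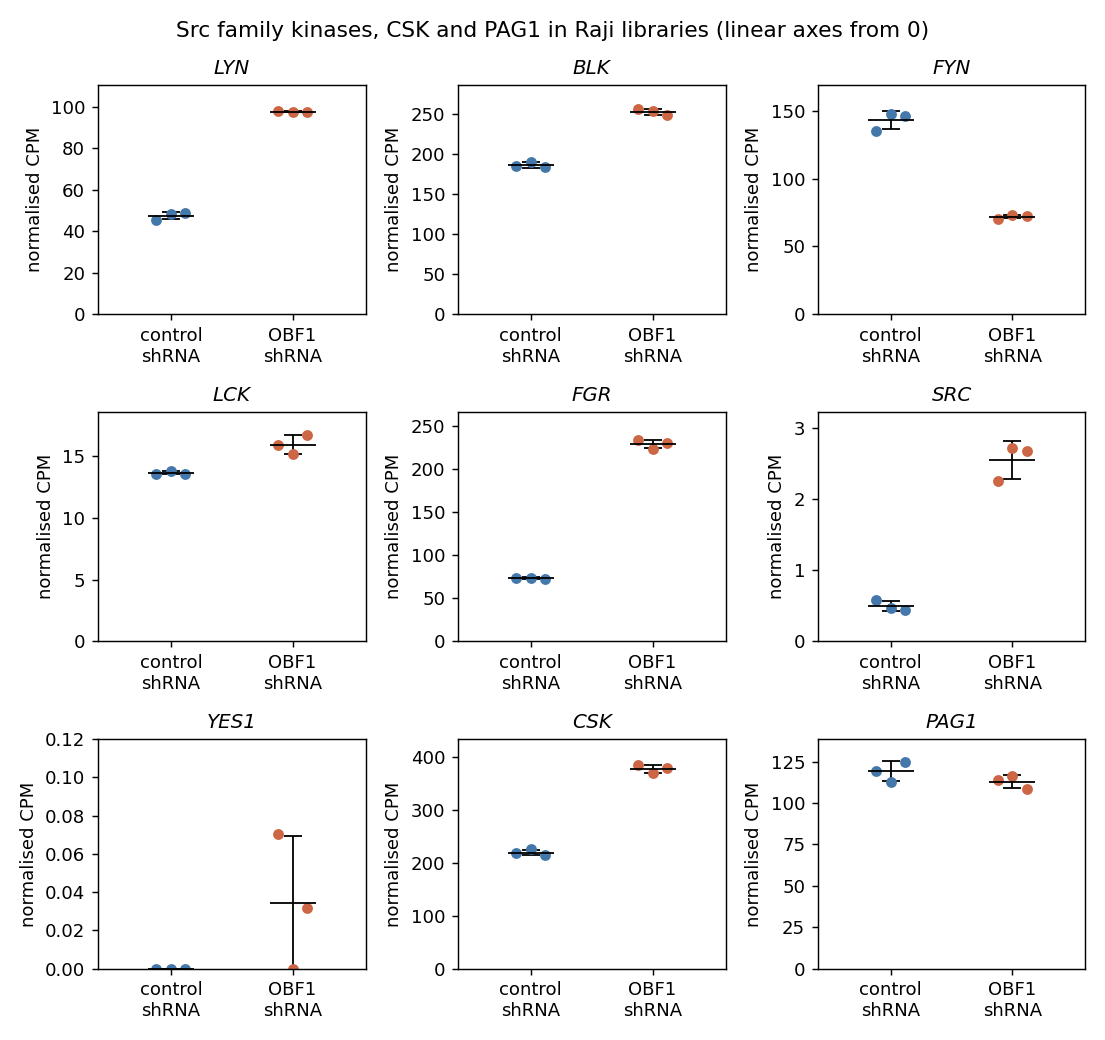
Normalised CPM (linear axes from 0, a separate axis for each gene) of the 7 Src family kinases, CSK and PAG1 in 3 control shRNA and 3 OBF1 shRNA libraries. Points are libraries, and bars give the mean and SD. FGR, LYN, BLK, LCK, SRC and CSK sit higher in OBF1 shRNA libraries, FYN lower, PAG1 overlaps, and YES1 is at or near 0.

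Levels of different kinases were compared per length, as TPM computed from the counts and the deposited gene lengths. The makeup of the family differed between the groups, and the order of FGR and FYN was reversed. In all 3 control libraries the order was BLK, FYN, FGR, LYN, LCK, SRC and YES1. In all 3 OBF1 shRNA libraries it was FGR, BLK, LYN, FYN, LCK, SRC and YES1. No 2 neighbours in either order overlapped in TPM share across the libraries of a group, although SRC made up at most 0.378% and YES1 at most 0.00834% of the sum.

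FGR made up 18.9%, 18.1% and 18.0% of the summed TPM of the 7 kinases in control libraries and 38.6%, 37.7% and 38.5% in OBF1 shRNA libraries. Its share was higher by 20.0 percentage points. FYN made up 28.9%, 30.1% and 30.5% in control and 9.79%, 10.4% and 10.1% in OBF1 shRNA libraries, a difference of -19.7 points. Shares add up to 100%, so a higher share of one kinase lowers those of the others. In levels FGR went from 61.8 ± 0.903 to 168 ± 2.41 TPM and FYN from 101 ± 3.96 to 44.4 ± 1.16 TPM (SD, n = 3). The share of LYN was 9.87% ± 0.253 in control and 13.6% ± 0.0944 in OBF1 shRNA libraries (SD, n = 3).

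BLK, although its transcript rose, made up a smaller part of the family in OBF1 shRNA libraries, 34.1% ± 0.432 against 37.4% ± 0.556 (SD, n = 3). LCK likewise went from 4.53% ± 0.0705 to 3.55% ± 0.166 (SD, n = 3). SRC made up 0.103% and 0.352%, and YES1 0.00405% in OBF1 shRNA libraries. The groups did not overlap for any kinase but YES1, beside 76.6% of all tested genes without overlap in CPM. No background was computed for shares. For those 6 kinases the exact two-sided permutation p was 0.1, the smallest that 3 libraries against 3 can give, and adjusted over the 7 shares it was 0.117, so no share difference could pass the threshold. For YES1 the exact permutation p was 0.4.

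**Figure D2:**
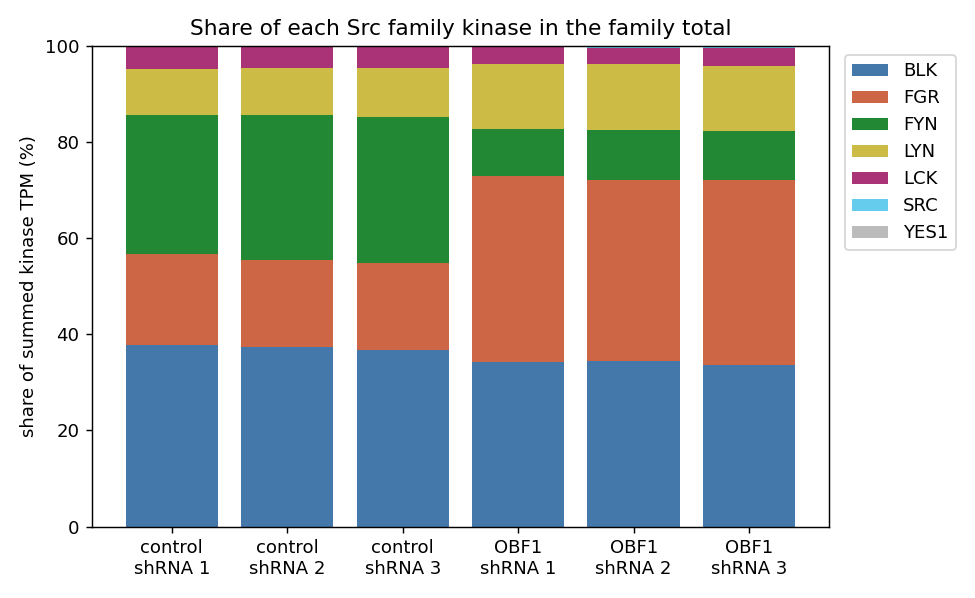
Share (%) of each Src family kinase in the summed TPM of the 7 kinases, 1 bar per library. The FGR segment takes 18.0% to 18.9% of the control bars and 37.7% to 38.6% of the OBF1 shRNA bars, while the FYN segment shrinks from 28.9% or more to 10.4% or less. SRC and YES1 are too small to see.

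The first place of FGR depended on the length correction. In shares of plain counts BLK came first in both groups, at 40.1% in control and 37.7% in OBF1 shRNA libraries, and FGR followed FYN in control at 15.9% and came next to BLK in OBF1 shRNA libraries at 34.2%. The annotation behind the deposited lengths is not given in the sources used here, 3470 bases for FGR and 4299 for BLK. FGR lay below FYN in control and above it in OBF1 shRNA libraries on both scales. Within a library the ratio of FGR to FYN transcripts in TPM was 0.654, 0.599 and 0.592 in control libraries and 3.94, 3.64 and 3.80 in OBF1 shRNA libraries, 6.17-fold higher (exact permutation p = 0.1). Likewise LYN went from 0.331 ± 0.00479 of FYN to 1.35 ± 0.0285 of FYN (SD, n = 3), a change from the scarcer to the more abundant of the pair. Ratios to FYN were added outside the plan and restate the levels of the single genes.

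The summed level of the 7 kinases was 333, 339 and 340 TPM in control libraries and 442, 441 and 436 TPM in OBF1 shRNA libraries. Every OBF1 shRNA library was higher, by 1.30-fold on average (log2 difference 0.38, exact two-sided permutation p = 0.1). On counts per length under TMM scaling, the same log2 difference was 0.57. CSK rose by more than this sum. The summed kinase TPM was 1.78, 1.80 and 1.86 times the CSK TPM in control libraries and 1.55, 1.59 and 1.56 times in OBF1 shRNA libraries, so that the ratio was 1.16-fold lower without overlap (log2 difference -0.21, exact permutation p = 0.1).

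Each kinase stood in its own relation to CSK. FGR was at 0.332 ± 0.00645 of the CSK level in control and 0.599 ± 0.00109 in OBF1 shRNA libraries (SD, n = 3). LYN also gained on CSK, from 0.179 ± 0.00855 to 0.213 ± 0.00382. BLK went from 0.677 to 0.534 of the CSK level, LCK from 0.0821 to 0.0556 and FYN from 0.541 to 0.158. PAG1, the anchor of CSK, went from 0.174 ± 0.0130 to 0.0954 ± 0.00462 of the CSK level (SD, n = 3), 1.82-fold lower. Of 13 such sums and ratios computed, none overlapped between the groups, and each had an exact permutation p of 0.1 before and after adjustment over the 13. Many of the 13 share a gene, so they are not separate results. For 76.6% of all tested genes the groups did not overlap in CPM, and no such background was computed for ratios. Lack of overlap is therefore no mark of these ratios.

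**Figure D3:**
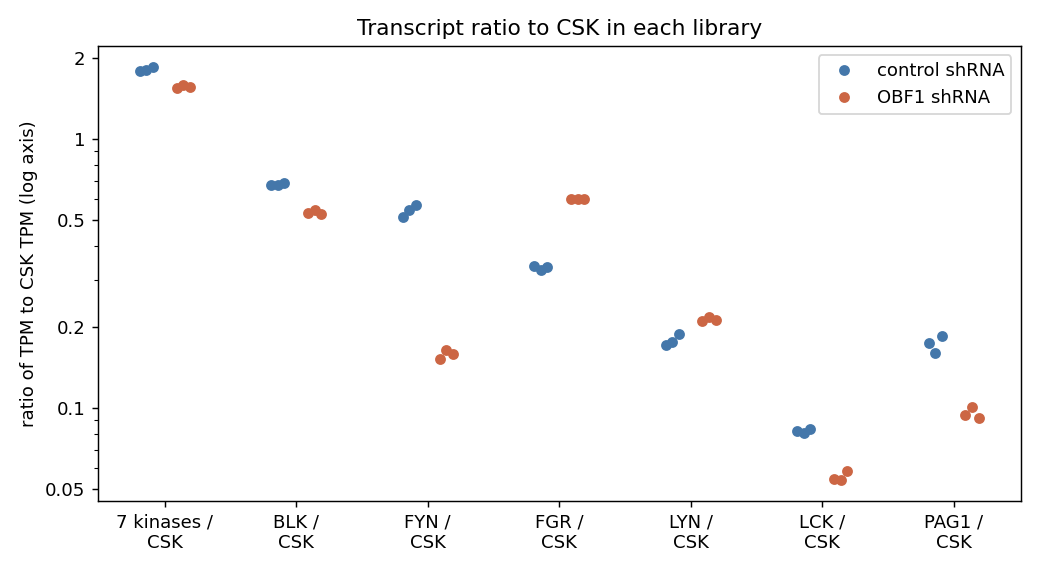
Ratio of TPM to CSK TPM (log axis) for the sum of the 7 kinases, for 5 single kinases and for PAG1. Points are libraries of the control shRNA and OBF1 shRNA groups. FGR and LYN lie higher relative to CSK in OBF1 shRNA libraries, and the kinase sum, BLK, FYN, LCK and PAG1 lie lower.

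More distant relatives of Src were scarce. FRK was called higher at 0.508 ± 0.0616 against 1.20 ± 0.353 CPM (SD, n = 3, edgeR adjusted p = 0.000400). PTK6 was at 0.391 and 0.344 CPM and did not pass the test. SRMS and MATK, the latter a close relative of CSK, had at most 2 counts in any library.

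Genes that act on or around these kinases were described from lists that were chosen by function, with earlier results of these data known. Among 14 listed adaptors that bind CSK or Src kinases, 8 were tested, of which 5 rose, 2 fell and 1 did not pass, with a median log2 fold change of 0.25 against -0.01 over all tested genes. The share called, 87.5% of the adaptors tested, stands beside 75.4% of all tested genes. LAT2, an adaptor phosphorylated by LYN, stood at 20.2 ± 1.79 CPM in the controls and 74.1 ± 1.83 CPM with the OBF1 hairpin (SD, n = 3), a 3.67-fold rise (edgeR adjusted p = 3.43e-16). SIT1, an adaptor that can bind CSK, rose 2.12-fold to 61.5 CPM, and SKAP2, a substrate of FYN, rose 1.64-fold to 71.5 CPM. The 2 that fell were CBL and LIME1, both picked once values were known. LIME1, another CSK-binding adaptor, was at 24.0 and 20.9 CPM with overlapping groups. It lost its call with the replicate number as a block (edgeR adjusted p = 0.0626), and without control shRNA replicate 1 (adjusted p = 0.0884) or 2 (0.0526) or OBF1 shRNA replicate 1 (0.118) or 2 (0.0734). CBLB, also picked later and called higher, was no longer called by DESeq2 (adjusted p = 0.0501) or, in edgeR, with upper-quartile factors (0.0577), with library sizes alone (0.770) or without control shRNA replicate 2 (0.0933) or OBF1 shRNA replicate 1 (0.0642) or 2 (0.0932).

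Of 11 phosphatases known to act on Src kinases or to bind CSK, all were tested, and 5 rose, 3 fell and 3 did not pass, with a median log2 fold change of 0.02. PTPN6, encoding SHP-1, which LYN activates through inhibitory receptors, was at 2.95, 3.63 and 3.52 CPM in the controls and at 84.2, 82.2 and 83.7 CPM with the OBF1 hairpin. PTPRC, whose product CD45 opposes CSK, stood at 173 ± 3.85 CPM in the controls and 396 ± 6.68 CPM with the OBF1 hairpin (SD, n = 3), a 2.29-fold rise (edgeR adjusted p = 1.64e-17). PTPRC therefore rose beside CSK itself. PTPN1 rose 1.31-fold to 157 CPM. PTPN22, the partner of CSK in lymphocytes, picked once its values were known, fell from 56.2 to 42.6 CPM. The share of called genes here, 72.7%, is close to the 75.4% of all tested genes. With library sizes alone 6 of the list were called lower, beside 5778 of all 12010 tested genes (4550 in the main fit).

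Listed substrates and signalling partners of these kinases at the B cell receptor were called in all 14 cases, 12 higher and 2 lower. Their median log2 fold change was 0.61 against -0.01 over all tested genes, of which 75.4% were called, 37.5% higher and 37.9% lower. PIK3AP1, the adaptor BCAP that carries PI3 kinase, rose 2.53-fold from 310 ± 12.2 to 783 ± 3.48 CPM (SD, n = 3). SYK, the kinase that docks on the phosphorylated receptor tails, rose 1.82-fold from 142 ± 4.19 to 258 ± 1.35 CPM, and PLCG2 rose 1.71-fold from 207 ± 4.71 to 355 ± 5.38 CPM (SD, n = 3). Adjusted p-values of these 3 genes in the edgeR test ran from 6.65e-18 to 8.34e-15. Those that fell, both picked once values were known, were BANK1, a scaffold that binds LYN, and the receptor chain CD79B. BANK1 was at 4.83 and 1.86 CPM and CD79B at 664 and 610 CPM. CD79A, the partner chain and also named afterwards, was called higher at 548 and 603 CPM, and lost that call with library sizes alone (edgeR adjusted p = 0.318).

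**Figure D4:**
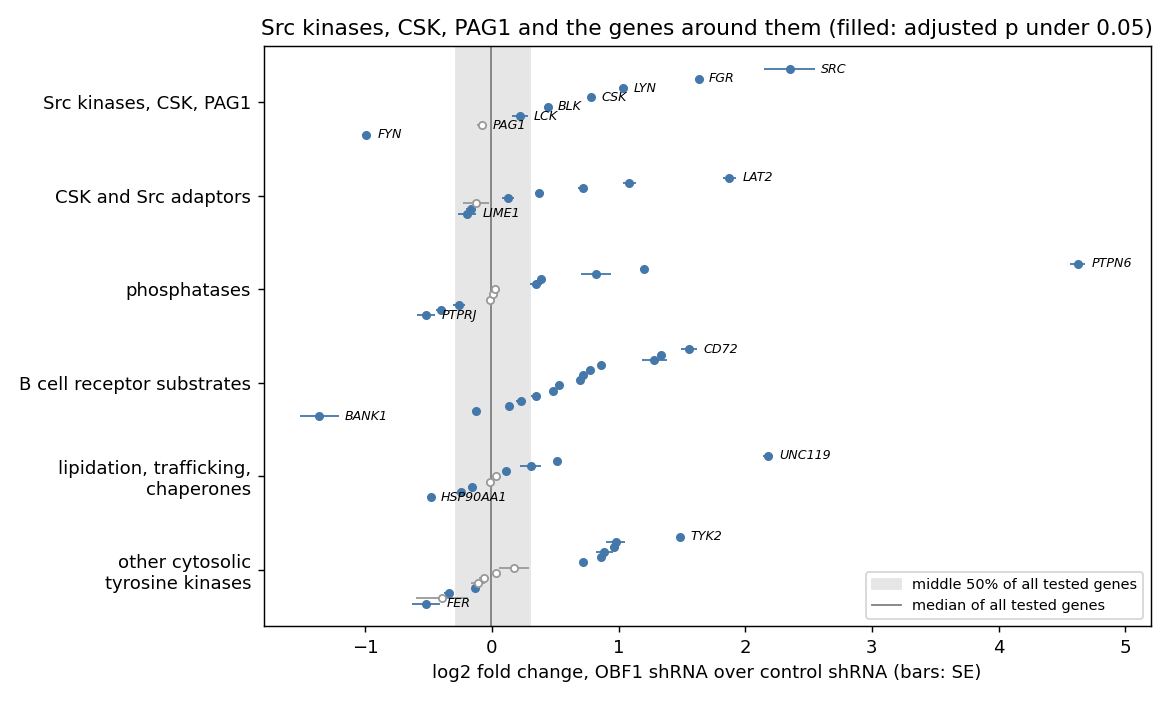
Log2 fold change (OBF1 shRNA over control shRNA, x axis, bars are SE) of tested genes in 6 functional lists, 1 point per gene, filled where the edgeR adjusted p is under 0.05. The grey band is the middle 50% of all tested genes and the line their median of -0.01. FYN at -0.99 and SRC at 2.35 are the extremes of the top row, and PTPN6 at 4.63 of the whole plot.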

How the data were processed

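The authors deposited 1 table of raw read counts per gene with a column of gene lengths, per the file headers, and all 6 count columns were used. Per the labels' protocols, library preparation followed a strand-specific mRNA kit. The submitters' processing notes list hg19 and mm9. Aligner, counter, annotation and strand setting were not given in the sources used here, so genes with close paralogs carry that uncertainty. Rows carry numeric gene identifiers, and 23308 of 23459 matched a symbol in a RefSeq table of GRCh38.p14. Of the RefSeq genes overlapping these 9, only MIR4513, at CSK, had a row, with 0 counts in every library. The others had no row, so reads from them could not be checked.

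Counts were filtered with filterByExpr (min.count 10, min.total.count 15), scaled by TMM and tested in edgeR 4.0.16 (R 4.3.3, glmQLFit and glmQLFTest, all 6 libraries, no covariate). The SE is the size of the log2 fold change divided by the square root of F. TPM, shares and ratios were computed from counts and deposited lengths and compared by exact permutation in scipy 1.17.1. The fit was tested on simulated data. Alternatives were DESeq2 1.42.0, limma-voom (limma 3.58.1), other scalings and filters, the replicate block, glmTreat against 1.5-fold, other definitions of the family and leaving out each library. Chi-square per degree of freedom between libraries of a group ranged from 1.88 to 3.26, so none looked like 1 library deposited again. The members and gene lists were chosen with earlier results of these data known. Genes named are the 9 members, POU2AF1 and the 3 smallest p-values of each of 6 functional lists. In the list of Src relatives only FRK and PTK6 were tested, and they are named by this rule. Cell type markers are named beside LCK and FGR. Any other gene, including SRMS and MATK, was named after its values were seen. Sequences are from RefSeq. Some items named by this rule are not reported here.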

Additional observations from a re-analysis of the deposited data

How the results depend on the processing

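Of 120 recomputed member results, 113 kept their direction and their side of the threshold, and the 7 others concern BLK, LCK and PAG1, 3 of them tests against 1.5-fold or library sizes alone that ended a call, and 4 that called PAG1 lower. Members called higher numbered 6, but 5 with library sizes alone and 4 with glmTreat against 1.5-fold. Members called lower numbered 1. The lower count became 2 with upper-quartile factors and 2 with library sizes alone, and was 1 to 2 with 1 library left out. With glmTreat, 1180 of all genes were higher and 787 lower, and the list counts fell to 7 higher and 1 lower for receptor substrates and partners, 3 higher and 0 lower for adaptors, 2 higher and 0 lower for phosphatases, 1 higher and 0 lower for lipidation and chaperone genes, and 0 lower for other cytosolic kinases. At an unadjusted glmTreat p under 0.05 these 4 lower counts were also 0, while DESeq2 and limma-voom each called 2, 3, 3 and 3 lower in the same lists. With library sizes alone, 6 phosphatases, 5 lipidation and chaperone genes and 6 other cytosolic kinases were lower, and with upper-quartile factors 5 of the last. Of all 12010 tested genes, 4550 were lower in the main fit, 5778 with library sizes alone and 4758 with upper-quartile factors. The list counts thus moved with a shift of all genes. All log2 fold changes moved by -0.11 (median) with library sizes alone. A filter of 1 CPM in 3 libraries left 0 relatives of Src called higher, because FRK was no longer tested. PTK6, uncalled, had a log2 fold change of -0.20, which ranged from -0.51 to 0.11 with 1 library left out and was above 0 only without control shRNA replicate 2. Lower adaptors numbered 1 with the replicate number as a block and 1 to 2 with 1 library left out. Same-numbered libraries did not deviate together (r between -0.12 and 0.01). The labels do not say that the numbers pair libraries, and such correlations over 3 libraries per group cannot exclude it. The replicate block changed no other call of the listed genes but that of LIME1. Over all alternatives the share difference ranged from 18.3 to 20.2 points for FGR and from -20.2 to -19.4 points for FYN. With 3 libraries per group, shares and ratios cannot pass 0.05. Depth limits SRC and YES1, with at most 84 counts in any library.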

Other observations

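Outside the Src family, 14 of 19 listed cytosolic tyrosine kinases were tested, with 6 higher, 3 lower and 5 uncalled in the edgeR test (64.3% called, against 75.4% of all tested genes), with a median log2 fold change of 0.10. TYK2, a kinase of cytokine receptors, was at 110 ± 2.96 CPM in the controls and 307 ± 1.72 CPM with the OBF1 hairpin (SD, n = 3), a 2.81-fold rise (edgeR adjusted p = 1.18e-18). PTK2B, the focal adhesion relative PYK2, was at 196 ± 4.01 CPM in the controls and 382 ± 11.6 CPM with the OBF1 hairpin (SD, n = 3), a 1.95-fold rise (edgeR adjusted p = 9.32e-16). SYK, described above, belongs to this list as well. The T cell kinase ZAP70, named after its values were seen, had at most 2 counts in any library.

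Src kinases need a myristoyl group to reach the membrane and chaperones to fold. Of 9 listed genes of these steps, 4 rose, 3 fell and 2 did not pass (77.8% called, near the 75.4% of all tested genes), with a median log2 fold change of 0.03. UNC119, a carrier of myristoylated proteins that binds Src kinases, was at 38.0, 35.1 and 35.5 CPM in control libraries and at 168, 159 and 166 CPM in OBF1 shRNA libraries, 4.54-fold higher (edgeR adjusted p = 4.30e-19). CDC37, the kinase co-chaperone, rose 1.43-fold to 279 ± 7.06 CPM (SD, n = 3). HSP90AA1, of the chaperones it serves, fell 1.40-fold, with 5497 ± 155 CPM in the controls and 3933 ± 91.0 CPM with the OBF1 hairpin (SD, n = 3, edgeR adjusted p = 1.67e-11). HSP90AB1, of the same list and named after its values were seen, was at 3376 and 3349 CPM. It did not pass the test (edgeR adjusted p = 0.684), and was called lower with library sizes alone (adjusted p = 8.21e-05). NMT1, the main myristoyl transferase and named after its values were seen, was at 225 and 243 CPM, and its call as higher was lost with library sizes alone (edgeR adjusted p = 0.954).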
